A study of Mus musculus with 6 samples.

Results

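The genes described here encode voltage-gated and potassium channels, the membrane pores through which Na+, Ca2+ and K+ cross the cell surface when it is depolarised, hyperpolarised or at rest. They were chosen by gene name: the Kcn genes (K+ channels and their partners), the numbered Scn genes (voltage-gated Na+ channels), the Cacn genes (voltage-gated Ca2+ channels) and the numbered Hcn genes (channels opened by hyperpolarisation). The rule found 136 of the 55471 genes counted, and no measured value entered it. Of these 136 genes, 130 had at least 1 count in at least 1 library and 6 had none (Kcna7, Kcna10, Kcnj1, Kcnj13, Kcnk15 and Kcnk16). A count of 0 allows a level of up to 0.062 to 0.087 CPM (counts scaled to the library total), which is 3 counts of a library's total.

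The tissue sequenced was the rostral end of the telencephalic primordium, dissected from mouse embryos at E11.5, the age at which the cortical and subpallial walls consist mostly of dividing neuroepithelial and radial glial cells with few young neurons. The 3 control samples came from embryos with floxed Dicer alleles and no Cre (Dicer F/F in the dissection note, WT in the genotype tag), and the 3 Rx-Dicer samples from RxCre-Dicer F/F embryos, in which Cre driven by regulatory sequences of Rx (Rax) deletes Dicer, the nuclease that makes mature microRNAs from their hairpin precursors. Both groups therefore carry the floxed allele, from a line kept on C57BL/6, and the Cre line was kept on CD1. The study describes recombination as strongest in the rostral and ventral telencephalon and weak in the neocortex at this age, so that an Rx-Dicer library can hold cells with and without Dicer. Whether a library stands for 1 embryo or for a pool is not stated in the labels, and p-values measure only the spread between these libraries.

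Libraries held 34471501 to 48373468 counts on genes, and the genotypes overlapped in depth. Dicer1, the targeted gene, had 6355, 7070 and 6270 normalised counts in control libraries and 4777, 7002 and 4644 in Rx-Dicer libraries, in the order of their replicate numbers. The library labelled Rx-Dicer 2 thus lay within the control range, and the log2 fold change was -0.26 ± 0.17 (SE, DESeq2 adjusted p = 0.567). Reads on exons outside the floxed part also enter this count, so it is a weak check of the labels. Among cell type markers, neuron markers summed to 607 to 764 RPKM (counts scaled by exon length and by the library total) in control libraries and 495 to 703 in Rx-Dicer libraries, with Nefl and Nefm called higher and Stmn3 lower. The Nefm call was lost with edgeR (adjusted p = 0.212), with the replicate block (0.0588) and without control 1 (0.141), control 2 (0.182), Rx-Dicer 1 (0.145) or Rx-Dicer 3 (0.0776), and that of Stmn3 with edgeR (0.175) and without control 1 (0.0643), Rx-Dicer 2 (0.0553) or Rx-Dicer 3 (0.0836). Nkx2-1, which marks the ventral telencephalon, had 3.66, 51.9 and 192 normalised counts in control libraries and 682, 1882 and 1307 in Rx-Dicer libraries (adjusted p = 0.0549), and the part of regional makeup in the results was not tested. Of the other lists, Pax6 and Fabp7 (progenitors) were called lower, Lhx6 (ventral telencephalon) and Otx2 (choroid plexus and roof plate) higher, and no gene of the mesenchyme, retina and pigment epithelium, or skeletal muscle lists was called. With edgeR none of these 4 was called (adjusted p = 0.133 to 0.269), and leaving out control 2 lost the calls of Pax6 (0.0553), Fabp7 (0.082) and Otx2 (0.343). Fabp7 was also lost without control 1 (0.242), Rx-Dicer 2 (0.226) or Rx-Dicer 3 (0.193), and Otx2 without control 3 (0.187), Rx-Dicer 2 (0.279) or Rx-Dicer 3 (0.156). The replicate block lost Pax6 (0.0598) and Otx2 (0.6, and 0.654 with the length and GC correction as well). Without independent filtering Fabp7 (0.0555) and Otx2 (0.0561) were lost.

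Channel genes set the resting potential of progenitors through leak and inward rectifier K+ channels, and give young neurons their first Na+ and Ca2+ currents. A pore-forming alpha subunit usually works with auxiliary subunits, which carry it to the membrane or set its gating. In the embryonic telencephalon the transcripts of most pore-forming subunits are known to rise as neurons mature. MicroRNAs lower the level of transcripts whose 3′ UTR pairs with their seed, bases 2 to 8 of the mature strand.

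Because Dicer makes microRNAs, the sites for 2 of them are shown first. The mature strands (RefSeq, GRCm38.p6) carry their seeds in capitals.
let-7a-5p: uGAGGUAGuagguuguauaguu
miR-9-5p: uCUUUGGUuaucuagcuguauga
The 8-base word searched was CTACCTCA for let-7 and ACCAAAGA for miR-9, on the transcript strand of annotated 3′ UTRs. The let-7 word stood in 4 of the 135 channel genes with an annotated 3′ UTR and the miR-9 word in 6. The 4 let-7 sites, with 11 bases on either side and the word in capitals, read 5′ to 3′ on the transcript strand of GRCm38:
Scn8a, chr15:101045462-101045491, plus strand: ataatactgacCTACCTCAcaggggtgttg
Scn11a, chr9:119754214-119754243, minus strand: cacctgcacgcCTACCTCAcagcctcacag
Scn4b, chr9:45152683-45152712, plus strand: tgaaataatacCTACCTCAcaggactgcag
Kcnk18, chr19:59237038-59237067, plus strand: cccttgaagatCTACCTCAggcactggaat
Scn4b, which encodes a Na+ channel beta subunit, also held a miR-9 word, and Kcnj2, the inward rectifier Kir2.1, held a pair of them:
Scn4b, chr9:45153284-45153313, plus strand: atgtcagtgagACCAAAGAcaaagcacaag
Kcnj2, first, chr11:111073840-111073869, plus strand: cttaaatgaatACCAAAGAtaatgcacatt
Kcnj2, second, chr11:111075280-111075309, plus strand: aaagtaatcaaACCAAAGAgtattcagtgg
The other genes with a miR-9 word were Kcnh1, Kcnj14, Kcnk4 and Kcnmb2.

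No channel gene with either word was called higher or lower. Scn8a, the Na+ channel Nav1.6 of axon initial segments, had 982, 879 and 1056 normalised counts in control libraries and 756, 1057 and 688 in Rx-Dicer libraries (log2 fold change -0.22 ± 0.18, adjusted p = 0.722). Scn11a, the Na+ channel Nav1.9 of sensory neurons, had 162, 186 and 209 against 85.8, 192 and 154 (-0.37 ± 0.30, adjusted p = 0.701). Scn4b had 50.1, 72.3 and 53.5 against 98.6, 46.9 and 39.0 (0.07 ± 0.42, adjusted p = 0.984). The groups overlapped in all 3 genes, and Kcnk18 had a single count in 1 library. Kcnj2, with a pair of miR-9 words, had 140, 113 and 175 against 206, 106 and 143 (0.09 ± 0.30, adjusted p = 0.969). Among genes tested, the let-7 word stood in 3.06% of channel genes (3 of 98) against 4.04% of 14050 protein-coding genes with a 3′ UTR, and the miR-9 word in 5.1% (5 of 98) against 5.06%.

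Most channel genes were at a low level. RPKM was used to compare genes, since longer transcripts give more reads. The median over the 130 channel genes with a count was 0.284 RPKM, against 3.11 RPKM over 17750 protein-coding genes with a count. A mean of at least 1 RPKM was reached by 36 channel genes (27.7%, against 63.3% of protein-coding genes), at least 5 RPKM by 4 and at least 10 RPKM by 3, while 43 lay under 0.1 RPKM. The sum was concentrated in few genes, with 37% in the 2 highest and 70% in the 15 highest. Summed over all channel genes, the level was 207, 187 and 184 RPKM in control libraries and 203, 188 and 160 RPKM in Rx-Dicer libraries, and the groups overlapped. In bulk tissue, fewer cells of a type and less RNA per cell cannot be told apart.

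**Figure D1:**
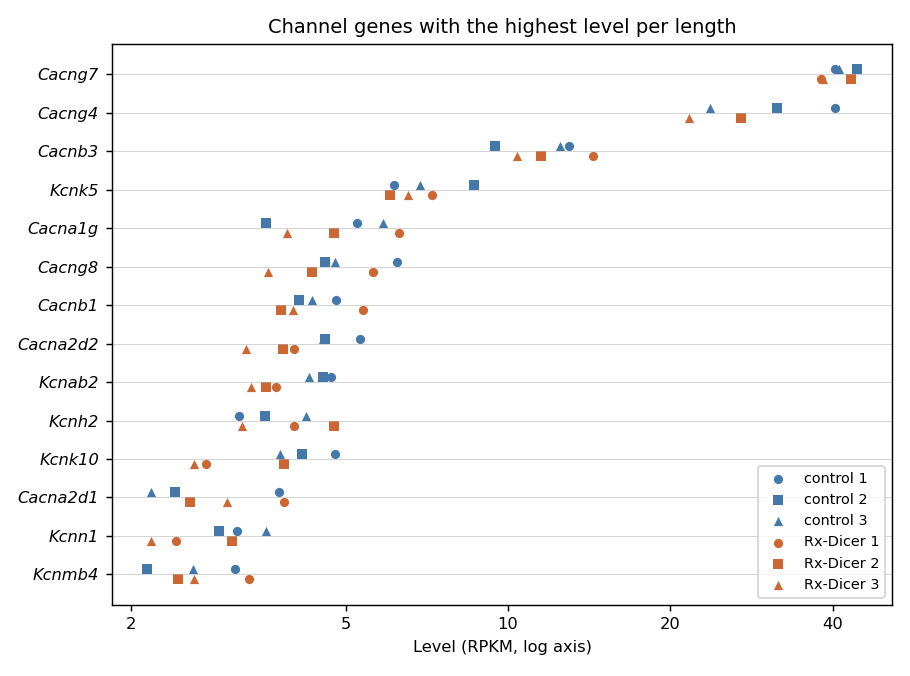
The channel genes with the highest level per length that are described in the text, on a log axis of RPKM, with 1 point per library (control in blue, Rx-Dicer in orange, symbol by replicate number). Cacng7 and Cacng4 stand above the rest, and the groups lie apart in Cacna2d2 and Kcnab2.

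The 3 highest genes encode auxiliary subunits of Ca2+ channels. Cacng7 was the highest, at 40.5, 44.4 and 41.1 RPKM in control libraries and 38, 43.2 and 38.4 RPKM in Rx-Dicer libraries. Its product and those of Cacng4 and Cacng8 are better known as TARPs, which escort AMPA-type glutamate receptors to the membrane. Cacng4 was next at 40.4, 31.6 and 23.7 RPKM against 27.1, 27.0 and 21.7 RPKM, and Cacnb3, a cytoplasmic beta subunit, followed at 9.45 to 13 RPKM in control libraries against 10.4 to 14.4 RPKM in Rx-Dicer libraries. Cacng7 and Cacng4 were nearly equal in control 1, where their ranges met, and Cacng4 exceeded Cacnb3 in each of the 6 libraries. From Kcnk5 downwards neighbours in the order overlapped in their range over libraries: Kcnk5 spanned 6.04 to 8.66 RPKM, Cacna1g 3.55 to 6.27 RPKM and Cacng8 3.58 to 6.22 RPKM. Among the genes reported here the order was then Kcnk5, Cacna1g, Cacng8, Cacnb1, Cacna2d2, Kcnab2, Kcnh2, Kcnk10, Cacna2d1, Kcnn1 and Kcnmb4, from a mean of 6.91 RPKM to 2.70 RPKM.

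The 2 genotypes were set against each other with DESeq2 over all genes. A gene was called where its adjusted p (Wald test, Benjamini-Hochberg) was under 0.05 and its log2 fold change lay beyond ±0.32, the fold minimum that the study used. An adjusted p was given for 98 channel genes. The other 32 with counts, with a mean of at most 12 raw counts per library, were too low for the test. Of the 98, 1 gene, Kcna5, was called higher and 0 lower (1.02%), against 2.93% of 17127 genes called in either direction and 1.75% called higher. At an unadjusted p under 0.05 there were 14 channel genes (14.3% against 13.1% of all genes), of which 7 were higher (7.14% against 6.96%) and 7 lower (7.14% against 6.11%). The Rx-Dicer values all lay above the control values in 6 channel genes (6.12% against 8.55%) and below them in 8 (8.16% against 10.7%). These shares are near those over all genes. edgeR's quasi-likelihood test called 0 of 103 channel genes and 8 of 17954 genes in all. Its lowest adjusted p for a channel gene was 0.208, and 10 channel genes had an unadjusted p under 0.05.

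Precision was limited for many of these genes. The median SE of the log2 fold change was 0.30 over channel genes tested and 0.17 over all genes tested. The 95% interval lay within a log2 change of -1 to 1 for 60 of the 98 genes and reached beyond it for 38, so that the latter intervals hold a doubling or a halving. The median log2 fold change was 0.059 over channel genes and -0.0009 over all genes tested, with 59 channel genes above 0 and 39 below (60.2% above 0 against 49.9%). Without Rx-Dicer 1 the median over channel genes was -0.110, and without Rx-Dicer 3 it was 0.134.

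**Figure D2:**
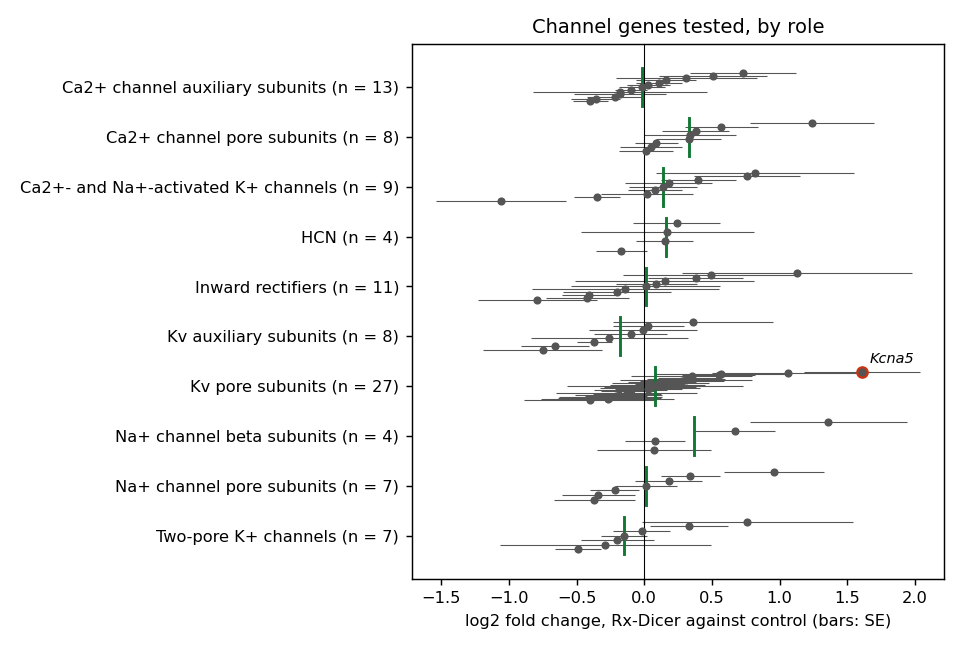
Log2 fold change (Rx-Dicer against control) of the 98 channel genes tested, by role, with SE bars; green lines mark the median of each role and the red point is Kcna5, the called gene at 1.61. Medians by role lie between -0.18 and 0.37.

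Voltage-gated K+ (Kv) pore subunits, which repolarise the membrane, were the largest class, with 40 genes, of which 38 had a count, 6 reached 1 RPKM and 27 were tested. Kcna5 encodes Kv1.5, known from heart and smooth muscle and also from microglia. Kcna5 (ENSMUSG00000045534, GRCm38 chr6:126532551-126535412, minus strand) had 61.1, 20.4 and 23.5 normalised counts in control libraries (35.0 ± 22.7, mean ± SD, n = 3) and 134, 98.8 and 84.6 in Rx-Dicer libraries (106 ± 25.3, n = 3). Each Rx-Dicer library lay above each control library, and the level rose from a mean of 0.289 RPKM to 0.884 RPKM. The log2 fold change was 1.61 ± 0.43 (95% interval 0.77 to 2.46, DESeq2 adjusted p = 0.0140). The call was lost with edgeR (adjusted p = 0.209), in the second sequencing file alone (0.0945) and without control 2 (0.17), control 3 (0.139), Rx-Dicer 1 (0.147), Rx-Dicer 2 (0.0713) or Rx-Dicer 3 (0.0548). It was kept without control 1 (log2 fold change 2.27, adjusted p = 5.95e-06).

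Kcna5 was set beside markers of microglia and macrophages. All 6 markers on that list were tested, and 2 of them, Csf1r and Cx3cr1, were called higher (log2 fold change 0.98 and 1.18). Both calls were lost with edgeR (adjusted p = 0.271 and 0.236) and without control 2 (0.33 and 0.191), control 3 (0.173 and 0.0866), Rx-Dicer 1 (0.298 and 0.169) or Rx-Dicer 3 (0.176 and 0.0997). Csf1r was also lost without control 1 (0.0643), without independent filtering (0.0596) and with the second file alone (0.0677). The summed level of the 6 markers was 4.98 to 6.67 RPKM in control libraries and 19.6, 5.79 and 12.5 RPKM in Rx-Dicer libraries. The library labelled Rx-Dicer 2 was within the control range for these markers and above each control for Kcna5. The endothelium and pericyte lists held no called gene, with sums of 33.6 to 36.2 against 18.6 to 43.2 RPKM and 26.6 to 37.8 against 26.5 to 36 RPKM. The part of other cells in the Kcna5 change was not tested further.

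Kcna5 aside, no Kv pore subunit was called. Kcnh2, the hERG channel, was the highest at 3.82 RPKM, with 647, 745 and 858 normalised counts against 804, 938 and 678 (0.10 ± 0.17, adjusted p = 0.917). Kcna3, Kcnh4, Kcna6 and Kcnd2 had means of 1.18 to 1.75 RPKM and log2 fold changes of -0.21 to 0.04. Kcnq3, a subunit of the channels that carry the M-current, had 104, 94.7 and 103 against 178, 151 and 112 (0.55 ± 0.27, adjusted p = 0.337). Kcnc2 and Kcng1 were, beside Kcna5 and Kcnq3, the Kv genes tested that had all Rx-Dicer values above the controls (adjusted p = 0.402 and 0.627).

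Kv auxiliary subunits comprised 11 genes, all with a count, of which 8 were tested and 0 called. Kcnab2, the cytoplasmic beta subunit Kv beta 2, had 1104, 1099 and 999 normalised counts in control libraries and 858, 809 and 811 in Rx-Dicer libraries. The groups did not overlap and each was narrow, with a log2 fold change of -0.37 ± 0.13 (adjusted p = 0.0926). The call was made without Rx-Dicer 1 (adjusted p = 0.0482) and among protein-coding genes alone (0.0451), and not without any other library (0.0802 to 0.281). Kcnip3, a Ca2+-binding Kv4 partner also known as the transcriptional repressor DREAM, had 407, 317 and 237 against 229, 225 and 153 (-0.66 ± 0.25, adjusted p = 0.151). The highest Rx-Dicer value of Kcnip3 was just under the lowest control value. Summed over the class, the level was 11.2, 9.51 and 9.67 RPKM in control libraries and 8.98, 8.41 and 7.27 RPKM in Rx-Dicer libraries. It was the only class of the 10 whose sums did not overlap, and most of the sum came from Kcnab2 and Kcnip3. For scale, single genes lay apart in this way in 10.7% (Rx-Dicer below) and 8.55% (above) of all 17127 genes tested.

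**Figure D3:**
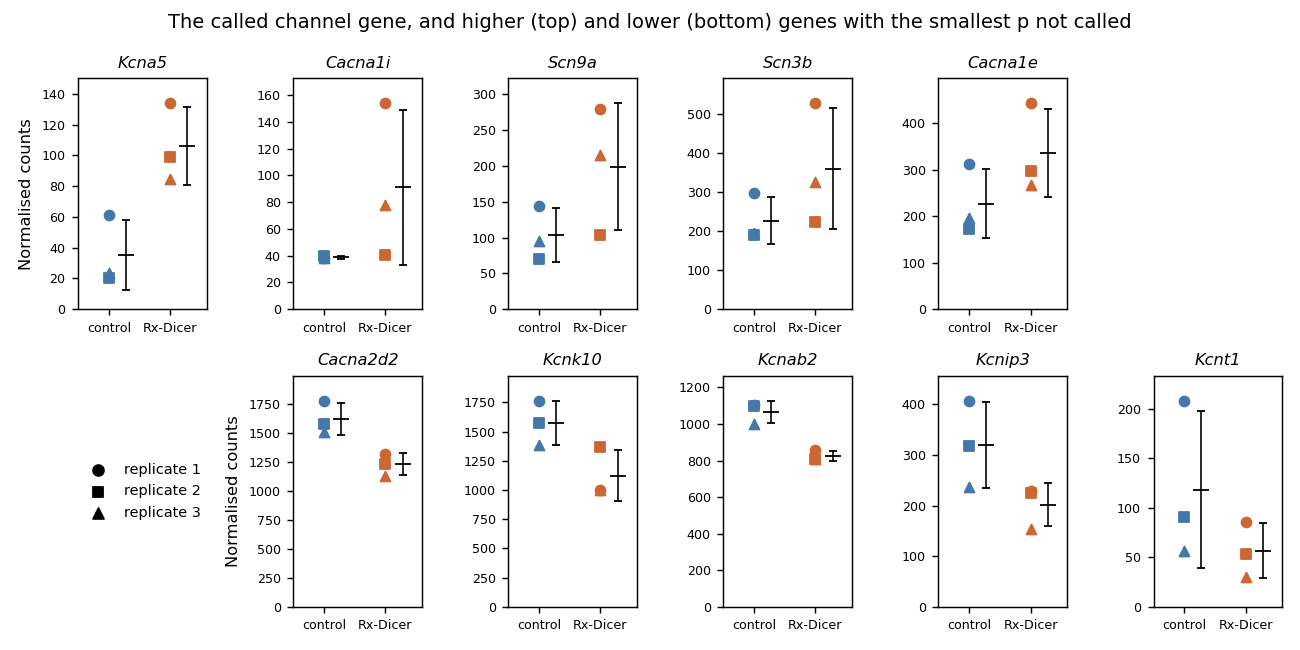
Normalised counts per library of Kcna5, the called gene, and of the higher genes (top) and lower genes (bottom) described in the text that had the smallest unadjusted p and were not called; black bars give the mean ± SD (n = 3). In Cacna1i, Scn9a and Scn3b the Rx-Dicer group runs from replicate 2, near the controls, to replicate 1.

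Ca2+- and Na+-activated K+ channels, which link the membrane potential to ion entry, comprised 12 genes, of which 9 were tested and 0 called. Kcnn1, the small-conductance channel SK1, was the highest at 2.88 RPKM, with 606, 580 and 682 normalised counts against 461, 574 and 436 (-0.35 ± 0.17, adjusted p = 0.338). Kcnmb4, the beta subunit of the large-conductance BK channel in brain, had 436, 309 and 363 against 456, 330 and 379, and its groups overlapped (0.08 ± 0.20). Kcnma1, the BK pore itself, was lower per length, at 0.1 RPKM. Kcnt1, the Na+-activated channel Slack, had 208, 90.6 and 56.4 against 85.8, 53.0 and 30.4 (-1.06 ± 0.48, 95% interval -2.01 to -0.11, adjusted p = 0.287). Control 1 stood far above the other controls of Kcnt1, and without it the log2 fold change was -0.38 (adjusted p = 0.849).

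Kcnn4 was named after its values were seen. It encodes the Gardos channel of red blood cells, and had 182, 400 and 214 normalised counts in control libraries and 174, 233 and 401 in Rx-Dicer libraries (0.02 ± 0.34, adjusted p = 0.994). Erythroid markers were high in the same libraries, with summed levels of 15639, 32188 and 14383 RPKM in control libraries and 15582, 11930 and 31592 RPKM in Rx-Dicer libraries. Control 2 and Rx-Dicer 3 were thus the highest of their group both for Kcnn4 and for the erythroid sum.

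Inward rectifiers, which hold the resting potential near that of K+, comprised 15 genes, of which 13 had a count, 11 were tested and 0 were called. Kcnj10, the Kir4.1 channel of glia, was the highest at 1.24 RPKM, with 275, 354 and 340 normalised counts against 213, 272 and 244 (-0.41 ± 0.20, adjusted p = 0.316). The lowest control value of Kcnj10, 275, was just above the highest Rx-Dicer value, 272. Kcnj8, the Kir6.1 channel of pericytes and smooth muscle, was named after its values were seen, with 101, 124 and 118 against 77.2, 99.8 and 21.9 (-0.79 ± 0.44, adjusted p = 0.445). Rx-Dicer 3, the lowest library for Kcnj8, was also the lowest for the summed endothelium markers, at 18.6 RPKM against 33.6 to 43.2 RPKM in the other 5 libraries. The pericyte sum, most of it from Notch3 (mean 23.5 RPKM), was 26.5 RPKM there against 26.6 RPKM in control 1. Pdgfrb, Rgs5, Abcc9 and Cspg4 on that list were each lowest in Rx-Dicer 3, at 1053, 72.2, 55.1 and 109 normalised counts. Notch3 was lowest in control 1. The part of these cells in the Kcnj8 values was not tested.

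**Figure D4:**
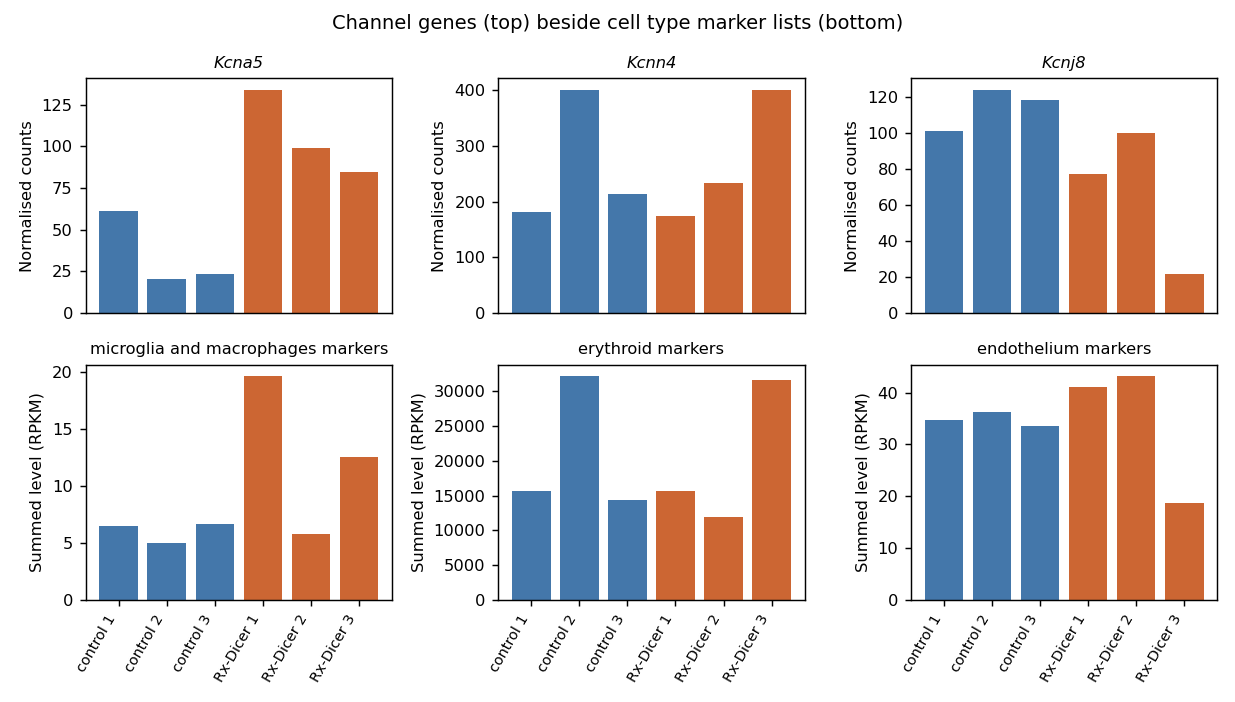
Normalised counts per library of Kcna5, Kcnn4 and Kcnj8 (top) and the summed RPKM of markers of microglia and macrophages, of erythroid cells and of endothelium (bottom), with control in blue and Rx-Dicer in orange. Kcnn4 and the erythroid sum peak in control 2 and Rx-Dicer 3, while Kcna5 is above the controls in Rx-Dicer 2 at 98.8 normalised counts, where the microglia sum is 5.79 RPKM.

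Two-pore K+ channels, which carry the leak current, comprised 14 genes, of which 12 had a count, 7 were tested and 0 were called. Kcnk5, the acid-sensitive channel TASK-2, was the highest at 6.91 RPKM, with 881, 1278 and 979 normalised counts against 1021, 837 and 969 (-0.15 ± 0.17, adjusted p = 0.846). Kcnk10, the stretch- and lipid-gated channel TREK-2, had 1764, 1578 and 1390 in control libraries and 1002, 1372 and 998 in Rx-Dicer libraries. All Rx-Dicer values lay below the controls, Rx-Dicer 2 only just (-0.49 ± 0.17, adjusted p = 0.0915). The call was made without the library labelled Rx-Dicer 2 (-0.65, adjusted p = 0.00114) and with a correction for gene length and GC content (-0.60, adjusted p = 0.0173), and not without any other library (0.0996 to 0.363). The span of Kcnk10 contains another annotated gene on the same strand, as do those of Kcnip3, Scn9a, Cacng7, Cacng8 and Cacna2d1, and reads shared by exons of 2 genes were not counted. Kcnk1 and Kcnk2, the relatives TWIK-1 and TREK-1, had 2.28 and 2.18 RPKM and log2 fold changes of -0.02 and -0.20.

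Na+ channel pore subunits, which carry the upstroke of the action potential, comprised 10 genes, of which 7 were tested and 0 called. Scn3a, the Nav1.3 channel of embryonic brain, was at 2.04 RPKM. It had 1423, 772 and 1002 normalised counts in control libraries and 1240, 1156 and 823 in Rx-Dicer libraries, and the groups overlapped (0.01 ± 0.23). Scn9a, the Nav1.7 channel of pain-sensing and olfactory neurons, had 144, 70.3 and 94.9 against 280, 104 and 215 (0.96 ± 0.37, adjusted p = 0.153). It was called without the library labelled Rx-Dicer 2 (1.27, adjusted p = 0.0142) and was 0.63 (adjusted p = 0.542) without Rx-Dicer 1. The olfactory placode and sensory neuron list held no called gene, with summed levels of 8.72 to 14.7 RPKM against 14.4 to 19.9 RPKM. Most of that sum came from Trp73 and Isl1 (means of 5.4 and 3.66 RPKM), while Omp and Pou4f1 were at 0.127 and 0.325 RPKM.

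Na+ channel beta subunits, which anchor and tune the pore, comprised 4 genes, all tested and 0 called. Scn2b was the highest at 1.70 RPKM, with 275, 285 and 414 normalised counts against 380, 359 and 290 (0.08 ± 0.22, adjusted p = 0.962). Scn3b had 296, 189 and 194 against 527, 223 and 325 (0.67 ± 0.30, adjusted p = 0.277). Rx-Dicer 1 was the highest library for both Scn3b and Scn4b.

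Ca2+ channel pore subunits comprised 10 genes, of which 8 were tested and 0 called, and all 8 had a log2 fold change above 0 (0.01 to 1.24, median 0.33). Summed over the class the groups overlapped, at 10, 8.02 and 12.5 RPKM in control libraries and 14.1, 11.7 and 8.87 RPKM in Rx-Dicer libraries. The highest was Cacna1g, a low-threshold T-type channel, with 2240, 1561 and 2486 normalised counts against 2636, 1965 and 1717 (0.01 ± 0.20, adjusted p = 0.996). Cacna1i, another T-type channel, had 37.9, 39.7 and 38.5 against 154, 40.8 and 78.0 (1.24 ± 0.46, adjusted p = 0.133). The controls of Cacna1i were nearly equal, Rx-Dicer 2 was at their level and the other Rx-Dicer libraries were above them. Cacna1i was called without the library labelled Rx-Dicer 2 (1.59, adjusted p = 0.00882) and was 0.62 (adjusted p = 0.581) without Rx-Dicer 1. Cacna1e, the R-type channel, had 313, 173 and 196 against 443, 297 and 268 (0.57 ± 0.27, adjusted p = 0.323).

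Ca2+ channel auxiliary subunits comprised 16 genes, all with a count, of which 7 reached 1 RPKM, 13 were tested and 0 were called. The sum was 117, 103 and 94.9 RPKM in control libraries and 101, 98.6 and 86 RPKM in Rx-Dicer libraries. Cacng7 differed by a log2 fold change of -0.10 ± 0.12 (95% interval -0.32 to 0.13, adjusted p = 0.856), one of the tightest intervals among channel genes. Cacng4 had 6088, 4903 and 3556 normalised counts against 4022, 3940 and 3373 (-0.36 ± 0.18, adjusted p = 0.383) and was called without control 3 (-0.54, adjusted p = 0.0352), while without control 1 it was -0.16 (adjusted p = 0.787). Cacng8 had 614, 465 and 469 against 546, 413 and 366 (-0.22 ± 0.20, adjusted p = 0.768).

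Cacna2d2, an extracellular alpha2delta subunit that binds gabapentin, had 1778, 1576 and 1511 normalised counts in control libraries and 1321, 1237 and 1131 in Rx-Dicer libraries. The groups did not overlap (-0.40 ± 0.13, 95% interval -0.66 to -0.14), and the adjusted p was 0.0760. Cacna2d2 was called without Rx-Dicer 1 (-0.45, adjusted p = 0.0294), among protein-coding genes alone (0.0383), among genes with at least 10 counts in 3 samples (0.0485) and with a correction for length and GC content (0.0477), and not without any other library (0.0849 to 0.193). Its relative Cacna2d1 had 1968, 1299 and 1133 against 1977, 1303 and 1629, with overlapping groups (0.16 ± 0.22). The beta subunits Cacnb3 and Cacnb1 had log2 fold changes of 0.03 ± 0.16 and -0.02 ± 0.17 (adjusted p = 0.982 and 0.987).

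HCN channels, whose current paces rhythmic firing, comprised 4 genes, all tested and 0 called. Hcn3 and Hcn4 were at 2.21 and 2.06 RPKM, and Hcn2 at 0.574 RPKM. Hcn3 had 370, 446 and 415 normalised counts against 423, 379 and 293 (-0.17 ± 0.19, adjusted p = 0.842), and Hcn4 548, 403 and 558 against 702, 492 and 479 (0.15 ± 0.21, adjusted p = 0.883). The groups overlapped in all 4 genes.

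Libraries of the same genotype differed across channel genes by more than the median difference between the genotypes. Of the 98 genes tested, 38 had their highest normalised count in Rx-Dicer 1 (38.8%, against 15.9% of all genes tested) and 23 in control 1 (23.5% against 16.6%). Rx-Dicer 3 held the highest count of 6 genes (6.12% against 16.5%) and the lowest of 31 (of the 98, against 15.7% of all genes tested). The median difference of channel genes from the control mean, on the log2 scale, was 0.13, -0.131 and -0.009 in control libraries and 0.305, 0.042 and -0.102 in Rx-Dicer libraries. Neuron markers had summed levels of 764, 607 and 641 RPKM in control libraries and 703, 523 and 495 RPKM in Rx-Dicer libraries. Tubb3 (mean 342 RPKM) made up most of this sum. Each marker on the list had its highest normalised count in control 1 or Rx-Dicer 1. Map2, Mapt, Snap25, Syt1, Nefl, Nefm and Ina were highest in Rx-Dicer 1, and the others in control 1. Control 1 and Rx-Dicer 1 were the highest of their group in both the channel gene median and the neuron sum. The part of neurons in the difference was not tested.

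**Figure D5:**
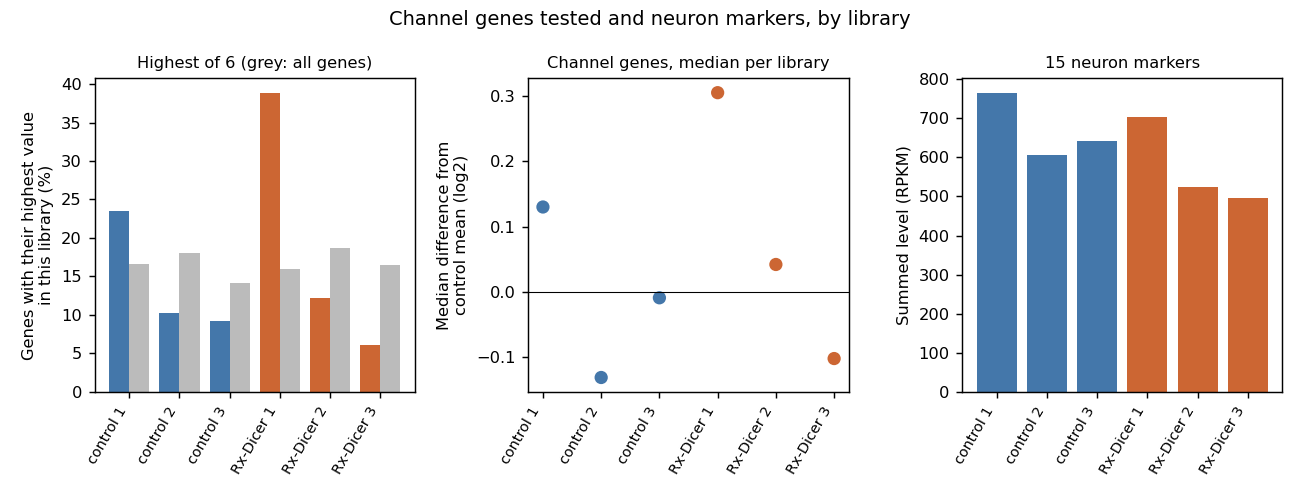
By library, the share of channel genes tested that had their highest value there (coloured bars, with the share of all genes in grey, left), the median log2 difference of channel genes from the control mean (middle) and the summed RPKM of 15 neuron markers (right). Rx-Dicer 1 holds 38.8% of the highest values of channel genes and Rx-Dicer 3 6.12%.

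Genes that were higher with a small p followed different orders among Rx-Dicer libraries. Cacna1i, Scn9a and Scn3b were each highest in Rx-Dicer 1, next in Rx-Dicer 3 and lowest in Rx-Dicer 2. The cause of this order was not tested. Kcna5, the called gene, and Cacna1e and Kcnq3 were instead lowest in Rx-Dicer 3. Nefl, a neurofilament of projecting axons, had the order of Cacna1i, with 263, 383 and 485 normalised counts in control libraries and 1487, 593 and 1157 in Rx-Dicer libraries (1.52 ± 0.29, adjusted p = 6.64e-05). The Nefl call was lost with edgeR (adjusted p = 0.172) and without control 2 (0.215). The length and GC correction lost it too (0.057, and 0.229 with the replicate block as well). The summed microglia markers also had the order of Cacna1i, at 19.6, 12.5 and 5.79 RPKM in Rx-Dicer 1, 3 and 2. Without the library labelled Rx-Dicer 2, 3 channel genes were called, Cacna1i and Scn9a higher and Kcnk10 lower, of 97 tested, against 3.78% of 16819 genes.

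Genes whose products bind, anchor or repress channels were read from the same fit. Of 34 such genes 33 were tested, and 2 were called higher and 0 lower. Over all 17127 genes tested, 1.75% were called higher and 2.93% in either direction. Lrrc26, a BK partner, had no count. Rest encodes the repressor that silences many neuronal genes, channels among them, outside neurons. Rest rose from 3149, 2883 and 3290 normalised counts in control libraries to 4184, 4070 and 4865 in Rx-Dicer libraries (0.49 ± 0.13, adjusted p = 0.00791), and the groups did not overlap. The call of Rest was lost with edgeR (adjusted p = 0.134) and without control 2 (0.0725). With the length and GC correction it was lost as well (0.0535, and 0.0619 with the replicate block added). Rcor1, its corepressor, had 2572, 2710 and 2679 against 3136, 3221 and 3327 (0.28 ± 0.11, adjusted p = 0.143). Lgi1, a secreted protein found with Kv1 channels, had 19.5, 11.2 and 16.0 against 91.8, 21.4 and 55.1 (1.86 ± 0.57, adjusted p = 0.0442), in the order Rx-Dicer 1, 3 and 2. Lgi1 was at 0.075 RPKM, and its call was lost with edgeR (adjusted p = 0.227) and with the replicate block (0.119). Leaving out control 1 (0.0779), control 2 (0.296) or control 3 (0.167) lost it too. So did no independent filtering (0.0796), a minimum of 10 counts in 3 samples (0.0633) and protein-coding genes alone (0.0719). The length and GC correction lost it as well (0.0826, and 0.21 with the block). In the second file, and without Rx-Dicer 1 or 3, the counts of Lgi1 fell under the filter. The summed level of the list was 855 to 891 RPKM in control libraries and 767 to 954 RPKM in Rx-Dicer libraries.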

How the data were processed

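RNA-seq libraries (directional, paired reads) of 3 control and 3 Rx-Dicer samples were analysed. The files deposited hold raw read counts, 1 value per Ensembl gene. The authors trimmed reads with Trim Galore 0.6.5, aligned them to GRCm38.p6 with HISAT2 and counted them with HTSeq 0.12.4 in union mode on the reverse strand, so that antisense genes did not share reads and reads on more than 1 gene were left out. Each sample had 2 files, which differed little more than sampling noise (chi-square per degree of freedom 1.11 to 1.47, against 20.5 to 29.6 between samples of a group) and were summed, so n was 3. Lines naming no gene held 24.9 to 31% of the reads and were dropped. Floors cover counting error only, since reads carried no molecular identifiers.

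Names and exon lengths came from the files and the GENCODE M21 annotation of GRCm38, in which 55144 of 55471 identifiers and all 136 channel genes were found. RPKM used the union of a gene's exons and the counts on genes. Genotypes were compared with DESeq2 1.42.0 (R 4.3.3), which the study also used, with median-of-ratios size factors, unshrunken fold changes, independent filtering and genotype as the only term, and with edgeR 4.0.16. Normalised counts are counts divided by DESeq2 size factors, and 95% intervals use the normal approximation. The code was tested on simulated data.

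The channel genes, their roles and the lists of markers and partners were chosen with earlier results of these data known. Genes were named if called, if among the 15 highest by RPKM, if the highest of their role, if among the 5 higher or 5 lower uncalled genes with the smallest p, or if tested and holding a let-7 word; others named were chosen after their values were seen. Some genes that meet the rule are not reported here by name or value, and they stay in the counts, sums and medians. Alternatives were other scalings (TMM, total counts), thresholds and filters, a test of protein-coding genes only, either file by itself, the replicate number as a block, a correction for gene length and GC content (splines with 5 degrees of freedom), and leaving out each library.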

Additional observations from a re-analysis of the deposited data

How the results depend on the processing

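The 1 channel gene called became 0 with edgeR and with the second file alone, 2 with a minimum of 10 counts in 3 samples, 4 at an adjusted p under 0.1, 3 among protein-coding genes alone, 3 with the length and GC correction, 2 with the replicate block and that correction together, and 0 to 3 when a library was left out (0 without control 2 or without Rx-Dicer 3, 3 without Rx-Dicer 2). It stayed 1 with TMM or total-count scaling, without independent filtering, at a fold minimum of 2, with the first file alone and with the replicate block. The share of all genes called moved too, from 2.93% in the main fit. It was 3.78% with the count minimum (87 channel genes tested), 4.32% at an adjusted p under 0.1 (98) and 3.96% among protein-coding genes (101). The length and GC correction gave 2.18% (95), and 1.66% with the block as well (102). edgeR gave 0.0446% (103) and the second file 2.7% (83). Leaving out a library gave 1.53% to 4.26%, with 73 to 106 channel genes tested. The median log2 fold change of channel genes ran from -0.110 to 0.134 over leave-one-out fits and was -0.003 with the length and GC correction, all within 0.173, the SD between libraries, of 0.059. With that correction the median over all genes tested moved as well, to -0.0492 from -0.0009 in the main fit. Of the values of named genes under alternatives, 501 kept direction and call, 7 lost the call of Kcna5 and 15, in 6 genes, gained a call. The remaining 28, in 9 genes, changed sign, and none of these was called. Cacna1g was -0.0011 among protein-coding genes, -0.01 with the first file, -0.06 with the length and GC correction, -0.04 with the block as well, and -0.19 to 0.15 over leave-one-out fits. Scn4b was -0.07 with the second file, -0.04 with the replicate block, -0.04 with the block and correction, and -0.46 to 0.32 over leave-one-out fits. Cacna2d1 was -0.02 with the correction, -0.02 with the block as well, and -0.00064 to 0.43 over leave-one-out fits. Kcnmb4 was -0.00076 with the block and correction and -0.06 to 0.21 over leave-one-out fits, and Cacnb1 0.04 with the second file and -0.19 to 0.09. Over leave-one-out fits Cacnb3 ran from -0.11 to 0.11, Scn2b from -0.03 to 0.29, Kcnk5 from -0.26 to 0.02 and Kcnh2 from -0.01 to 0.21. The causes were not tested. Of the 15 highest genes by RPKM, 11 were among the 15 highest by CPM.

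Replicate numbers come from the titles. Deviations of same-numbered libraries correlated at 0.189, 0.0372 and -0.143, and control 2 and control 3 correlated best with Rx-Dicer 3 and Rx-Dicer 2, so the numbers were not taken to pair the samples. The study describes the controls as littermates of the mutants, but the titles name no litter. With 3 libraries per group these correlations cannot show or exclude a pairing by litter, which was not tested. With the replicate block 314 genes were called over all genes in place of 502, and among channel genes still Kcna5 alone.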
